A study of Mus musculus with 10 samples.

Results

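The secretory genes examined here are 8 transcripts of the airway lining: the secretoglobins Scgb1a1, Scgb3a1 and Scgb3a2, the BPI fold proteins Bpifa1 and Bpifb1, the immunoglobulin transporter Pigr, the lectin Reg3g and the matrix protein Chad. They were chosen by gene name and make up 8 of the 19096 genes that had a probe. Each had exactly 1 probe, found through the RefSeq accession in the scanner files, and this probe was well above background on 4 or 5 of the 5 WT arrays and on all 5 SCC arrays. The WT group was 5 whole lungs of Lkb1f/f mice. The SCC group was 5 lung squamous cell carcinomas, described as whole lung tumor, of CCSPiCreLkb1f/f mice. All mice were labelled B6.129 and 13 months of age and had no special treatment, and the floxed Lkb1 alleles were carried by both groups. The tumour mice also carried Cre recombinase under CCSP, the club cell secretory protein that Scgb1a1 encodes, which acts in the airway epithelium. The labels do not say whether the driver occupies an Scgb1a1 allele, and its part in the Scgb1a1 level was not tested. They also do not say that every replicate was a separate mouse, so the p-values measure only the spread between these samples.

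Secretoglobins are small secreted proteins made by the non-ciliated cells of the airway, and Scgb1a1 is the standard marker of club cells. BPI fold proteins, mucins and lactoferrin belong mainly to the larger airways and their glands, where they coat the surface and limit bacteria. PIGR carries polymeric IgA and IgM from the tissue across the epithelium, and REG3G is a bactericidal lectin induced by IL-22 in gut and lung epithelium. Chondroadherin, the product of Chad, is a leucine-rich repeat protein known from cartilage. The comparison of both groups showed which of these products were more or less abundant in tumour RNA than in lung RNA. In bulk RNA, fewer cells of a type and less RNA per cell cannot be told apart.

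The promoters of the 5 genes that were higher in SCC are shown because these genes were called in the same direction, although the order of the tumours differed between them. Each is the 250 bases before the RefSeq start in build GRCm38.p6, 5′ to 3′ on the strand of the gene, and capitals mark matches to 6 motifs searched on both strands. These were the TATA box (TATAAA), the E-box (CACGTG), the forkhead motif in a pair of spellings (TGTTTAC and, with another second letter, TATTTAC), the C/EBP motif (TTGCNNAA) and the STAT motif (TTCNNNGAA).
Scgb3a1, chr11:49663345-49663594, plus strand: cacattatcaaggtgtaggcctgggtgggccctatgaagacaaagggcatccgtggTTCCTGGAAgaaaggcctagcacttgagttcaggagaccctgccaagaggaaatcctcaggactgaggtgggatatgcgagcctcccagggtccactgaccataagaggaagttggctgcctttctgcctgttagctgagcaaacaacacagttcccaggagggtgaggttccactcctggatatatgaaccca
Bpifa1, chr2:154142630-154142879, plus strand: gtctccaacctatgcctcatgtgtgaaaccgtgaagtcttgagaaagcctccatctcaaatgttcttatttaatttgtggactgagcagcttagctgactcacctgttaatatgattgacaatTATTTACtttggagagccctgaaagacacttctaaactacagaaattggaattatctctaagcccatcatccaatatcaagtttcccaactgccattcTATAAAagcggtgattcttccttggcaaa
Bpifb1, chr2:154200130-154200379, plus strand: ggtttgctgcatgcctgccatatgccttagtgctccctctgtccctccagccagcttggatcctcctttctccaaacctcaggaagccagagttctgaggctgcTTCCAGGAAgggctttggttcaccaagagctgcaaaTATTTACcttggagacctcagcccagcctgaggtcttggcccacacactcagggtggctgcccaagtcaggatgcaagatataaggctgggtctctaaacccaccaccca
Pigr, chr1:130826434-130826683, plus strand: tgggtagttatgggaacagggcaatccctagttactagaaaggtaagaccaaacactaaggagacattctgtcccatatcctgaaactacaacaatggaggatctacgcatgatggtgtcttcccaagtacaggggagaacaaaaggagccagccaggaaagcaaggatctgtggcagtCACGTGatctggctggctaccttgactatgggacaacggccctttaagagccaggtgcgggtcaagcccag
Reg3g, chr6:78468875-78469124, minus strand: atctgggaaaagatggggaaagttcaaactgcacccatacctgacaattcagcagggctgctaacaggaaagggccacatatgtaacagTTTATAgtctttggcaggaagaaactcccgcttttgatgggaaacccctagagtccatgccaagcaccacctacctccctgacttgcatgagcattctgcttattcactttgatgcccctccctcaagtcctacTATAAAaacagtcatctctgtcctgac
The window of Scgb3a1 held TTCCTGGAA, which starts 194 bases before the start and has the spacing TTCNNNGAA that STAT factors bind. The second of the 2 listed Bpifb1 starts, shown here, had another such run, TTCCAGGAA, at 146 bases, and the forkhead-type letters TATTTAC at 110 bases. The first Bpifb1 window held none of the 6 motifs. Bpifa1 had TATTTAC at 127 bases and a TATA box at 29 bases. Reg3g had a TATA box at 27 bases and, at 161 bases, TTTATA, the same letters read on the other strand. The single match in Pigr was the E-box CACGTG at 71 bases. Chad, whose level did not pass the test, had a TATA box at 28 bases. Over all 32851 listed promoters, TATAAA was found in 12.4%, CACGTG in 6.02%, TATTTAC in 2.73% and TTCNNNGAA in 7.02%. None of the 6 motifs was in all 5 windows, and no matches overlapped. TGTTTAC and TTGCNNAA, held by 3.17% and 9.56% of promoters, were in none of these windows.

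Among the tumour arrays, 2 stood apart. SCC replicate 5 had 90.2% of its probes well above background, against 71.0% to 74.5% on the other arrays. SCC replicate 2 was the lowest tumour array for all 11 basal and squamous marker genes. The log2 of their summed level was 16.37 there and 19.10 to 19.40 on the other 4 tumour arrays, and it was 8.57 to 9.06 on the WT arrays. All 11 of these markers were higher in SCC. Sftpc, the surfactant gene of alveolar type 2 cells, was still at 18.45 to 18.80 in the tumours. It was at 18.80 on all 5 WT arrays, at a rank where quantile normalization gives every array the same value. Which cells of the tumour samples made it was not tested. Of the markers of other lung cells, 6 of 7 tested were lower for alveolar type 1 cells and 7 of 8 for endothelial cells. For alveolar type 2 cells 1 of 8, Etv5, was lower, and 1 of 6 macrophage markers, Cd68, was higher. Over all tested genes 11.6% were called higher and 13.4% lower, so the type 2 and macrophage counts are near the share over all genes. Without SCC replicate 2, 3 alveolar type 2 markers were lower and 2 macrophage markers higher, and without WT replicate 3, 2 alveolar type 2 markers were lower. With slide as a fixed block neither Etv5 nor Cd68 was called, and 9 basal and squamous, 5 alveolar type 1 and 6 endothelial markers were. Of the 3 slides, the first carried WT replicates 1 to 4 and the third SCC replicates 4 and 5. The second slide carried the remaining arrays, which were WT replicate 5 and the first 3 SCC replicates.

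Of the 8 genes, 5 were higher and 2 were lower in SCC by limma, for which a call needed a 2-fold or greater difference and an adjusted p under 0.05. Chad did not pass. With slide, which nearly coincided with group, as a fixed block, only Scgb3a1 stayed called. Of all 30374 probes tested, 22.9% were called, 9.92% higher and 13.0% lower. The values of the 5 WT and the SCC arrays did not overlap for 6 of the 8 genes, where 37.4% of all tested probes showed no overlap. Levels below are log2 quantile-normalized intensities, and differences are SCC minus WT on the same log2 scale, with adjusted p-values from limma over all tested probes. Where the groups did not overlap, the exact two-sided permutation p was 0.00794, the smallest these group sizes allow.

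**Figure D1:**
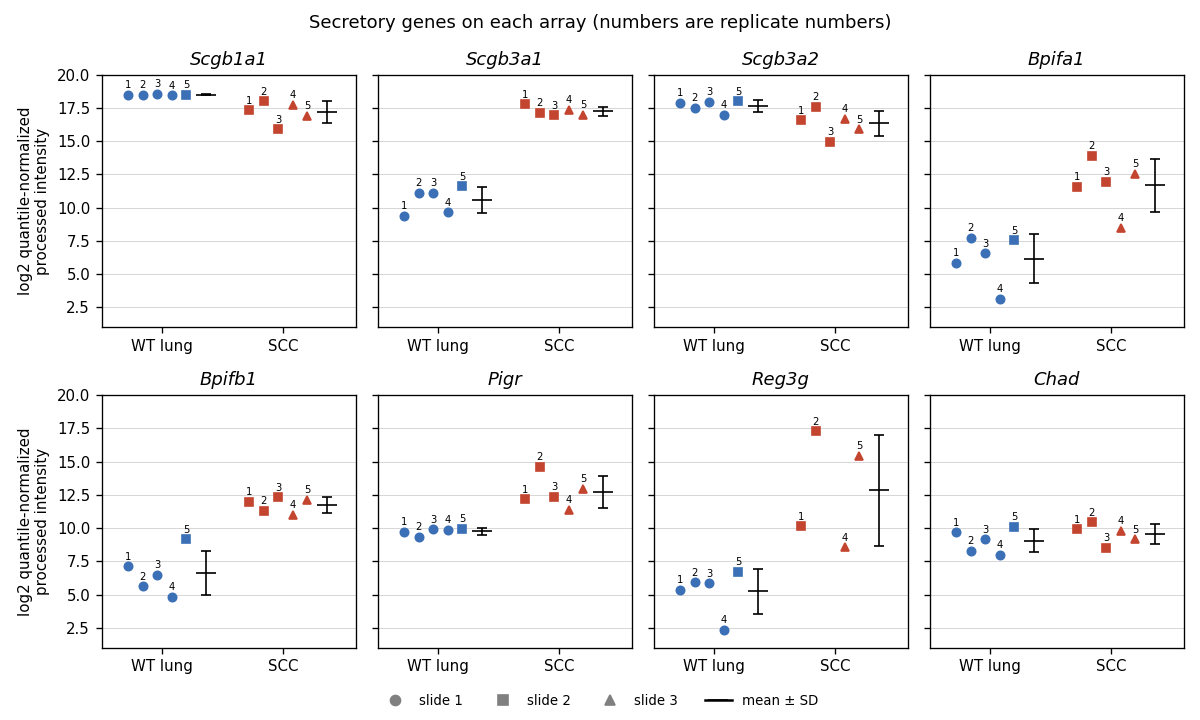
Log2 quantile-normalized intensity (y axis) of the 8 genes on each of 5 WT lung and 5 SCC arrays, with the slide as the symbol and the mean ± SD beside the points. Scgb3a1 rose from at most 11.61 to at least 16.96, Scgb1a1 and Scgb3a2 were lower, Reg3g was far above the other tumours on SCC replicates 2 and 5, and the Chad groups overlapped.

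Among the secretoglobins, Scgb3a1 rose about 102-fold while both club cell secretoglobins fell about 2.5-fold. Scgb3a1 encodes a cytokine-like secretoglobin of the airway surface, known also as HIN-1. On WT replicates 1 to 5 it was at 9.39, 11.14, 11.10, 9.66 and 11.61. On SCC replicates 1 to 5 it was at 17.79, 17.13, 16.96, 17.38 and 16.99. Every tumour was thus more than 5 log2 units above the highest lung, and the tumours were closer to each other (SD 0.34, n = 5) than the lungs were (SD 0.99, n = 5). The difference was 6.67 (SE 0.43, adjusted p 4.64e-06 by limma). It was the only difference of the 8 that stayed called under all 22 alternatives to the processing.

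Scgb1a1 was at 18.50, 18.50, 18.58, 18.45 and 18.50 on the WT arrays, with an SD of 0.047 (n = 5), and only 2.65% of tested probes had a smaller one. On SCC replicates 1 to 5 it was at 17.34, 18.01, 15.90, 17.73 and 16.90. All 5 tumours lay below all lungs, but by unequal steps, from -0.49 on SCC replicate 2 to -2.60 on SCC replicate 3 relative to the WT mean. The difference was -1.33 (SE 0.34, adjusted p 0.00961 by limma). On the WT arrays the probe held nearly the top rank, where quantile normalization gives every array nearly the same value, so the processed signal before normalization is also given. It was 305135 to 403620 on the WT arrays and 60341 to 303963 on the SCC arrays. The groups were thus next to each other without overlap, and none of these spots was saturated. When the arrays were instead scaled to their 75th percentile, the difference was -1.08 (adjusted p 0.0179).

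Scgb3a2, which encodes a secretoglobin of conducting airways with anti-inflammatory activity, was at 17.89, 17.49, 17.96, 16.97 and 18.01 on the WT arrays. On SCC replicates 1 to 5 it was at 16.57, 17.58, 14.98, 16.70 and 15.89. SCC replicate 2 lay inside the WT range and the other 4 tumours lay below it. The difference was -1.32 (SE 0.44, adjusted p 0.0297 by limma, exact permutation p 0.0238). This call rested on single arrays. The adjusted p was 0.0621 without WT replicate 1 (-1.28), 0.0659 without WT replicate 3 (-1.25), 0.0670 without WT replicate 5 (-1.23) and 0.0528 without SCC replicate 5 (-1.21). Without SCC replicate 3 the difference was -0.98, less than 2-fold, with an adjusted p of 0.0467.

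The order of the tumours was the same for both club cell secretoglobins. SCC replicate 2 was the highest, followed by replicates 4, 1, 5 and 3. Over all genes measured on the 10 arrays, the profile of Scgb3a2 relative to its WT mean was nearest to that of Cckar, a receptor gene from the club cell list, at a root mean square distance of 0.27 log2 units, and then to Scgb1a1 at 0.30 and Mfsd6l at 0.30. The nearest to Scgb1a1 were Sncg at 0.24, Tcea3 at 0.26 and Osr1 at 0.28. The profile of Scgb3a1 had no such close neighbour. The nearest were Plekhs1 at 0.83, Trp63, the squamous transcription factor, at 0.92 and Moxd1 at 0.94, among 14110 candidate genes.

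Of 20 other secretoglobins listed, 8 had a probe and 3 were bright enough to test. Scgb1c1, a secretoglobin known from the nasal lining, fell by 1.41 (SE 0.36, adjusted p 0.00901 by limma), from 10.66 to 11.98 on the WT arrays to 9.06 to 10.81 on the SCC arrays. The ranges overlapped slightly. Scgb2b27, a member of the androgen-binding protein branch, passed background on 4 SCC arrays but not on any WT array, which gives a level at least 2.53-fold higher in SCC (adjusted p 0.00693). SCC replicate 2, at 2.81, was inside the range of the WT measurements, and these paralogs are alike enough that cross-hybridization cannot be told apart. Scgb2b24 differed by 1.16 without passing (adjusted p 0.2496). None of the 3 was called with slide as a fixed block.

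The BPI fold genes Bpifa1 and Bpifb1 were both more than 5 log2 units higher in SCC. Bpifa1 encodes SPLUNC1, a surfactant-like antibacterial protein of the upper and conducting airway. It was at 5.85, 7.74, 6.57, 3.16 and 7.54 on the WT arrays, and not well above background on WT replicate 4. On SCC replicates 1 to 5 it was at 11.58, 13.93, 11.95, 8.49 and 12.54. All tumours were above all lungs, and SCC replicate 4 was the closest to them. The difference was 5.52 (SE 1.10, adjusted p 0.00258 by limma, 46.0-fold). Its size depended on the processing and on single arrays, at 4.15 with the normexp background, 4.71 with array quality weights, 4.76 without WT replicate 4, 4.64 without SCC replicates 2 and 5 and 6.30 without SCC replicate 4.

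Bpifb1 encodes the related LPLUNC1. It was at 7.11, 5.61, 6.46, 4.84 and 9.16 on the WT arrays and at 11.96, 11.30, 12.32, 10.99 and 12.12 on SCC replicates 1 to 5. The tumours differed little from each other (SD 0.57, n = 5), and the lungs differed more (SD 1.65, n = 5). The difference was 5.10 (SE 0.71, adjusted p 0.000314 by limma, 34.3-fold). It was 3.76 with the normexp background, 5.72 without WT replicate 5 and 2.70 with slide as a fixed block, where it was not called (adjusted p 0.0764). The genes nearest to Bpifb1 were Zfp750, Pthlh and Fer1l4, at 0.88, 0.95 and 0.97. Sox9, Fer1l4 and Krt15 were nearest to Bpifa1, at 1.45, 1.51 and 1.54.

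Of the other BPI fold genes, 13 of 15 had a probe and 7 were tested, with 1 called higher and 1 lower, where 11.6% and 13.4% of all tested genes were called in these directions. Pltp, the phospholipid transfer protein of plasma, fell by 1.76 (SE 0.092, adjusted p 1.74e-06), from 12.25 to 12.63 on the WT arrays to 10.58 to 10.75 on the SCC arrays. Bpifc was above background on 4 SCC arrays and no WT array, at least 1.51-fold higher (adjusted p 0.00208). Bpifa5, Bpifb6, Bpifa2, Lbp and Bpifb5 differed by 0.96, 0.90, 0.63, 0.52 and -0.41 and were not called. The median of the 7 was 0.63, against -0.038 over all 15586 genes tested. With scaling to the 75th percentile, and also without SCC replicate 2 or without SCC replicate 4, 3 were called higher, and with slide as a fixed block none was.

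Pigr was 7.73-fold higher in SCC. It was at 9.71, 9.33, 9.91, 9.86 and 9.97 on the WT arrays, close together (SD 0.26, n = 5). On SCC replicates 1 to 5 it was at 12.18, 14.63, 12.37, 11.38 and 12.97. All tumours were above all lungs, and SCC replicate 2 was the highest. The difference was 2.95 (SE 0.51, adjusted p 0.00109 by limma), and 2.24 without SCC replicates 2 and 5. Adra2a, Baiap2l2 and Prap1 had the nearest profiles, at 0.31, 0.39 and 0.47.

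Genes of IgA transport, plasma cells and B cells did not move as one group. Of 15 tested genes for IgA transport, the J chain and plasma cells, 3 were called higher and 5 lower, with a median difference of -0.46. Over all tested genes 11.6% were called higher and 13.4% lower, the shares to set beside this count and the B cell count below. Fcamr, an Fc receptor for IgA and IgM, was higher by 2.97 (adjusted p 0.000293) and Sdc1, the syndecan carried by plasma cells and by squamous epithelium, by 1.72 (adjusted p 4.52e-06). Cd79a and Cd79b, the signalling chains of the B cell receptor, fell by 1.55 and 1.72 (adjusted p 0.000300 and 4.64e-05). The others were Derl3, higher by 1.37, and Fcgrt, Tnfsf13b and Pou2af1, which fell by 1.08, 1.16 and 1.24. Jchain, which encodes the joining chain of polymeric IgA and is named here after its values were seen, differed by 1.20 (SE 0.81, adjusted p 0.243). It ranged from 8.31 to 12.80 on the WT arrays and from 10.75 to 13.09 on the SCC arrays. Of 6 B cell markers, 4 were called lower, Cd79a, Cd79b and Ms4a1 among them, and 2 were not called, and the log2 of the summed level of the list was 13.26 to 14.05 in WT and 11.80 to 12.07 in SCC.

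Reg3g was higher in SCC and had by far the largest spread between tumours among the 8 genes. On the WT arrays it was at 5.37, 5.93, 5.85, 2.36 and 6.71, the fourth not well above background. On SCC replicates 1, 2, 4 and 5 it was at 10.14, 17.28, 8.56 and 15.46. The spot of SCC replicate 3 was flagged as an outlier by the scanner software and was left out of the fit, and the authors' matrix lists 9.44 there. All measured tumours were above all lungs, and replicates 2 and 5 were at least 5 log2 units above the others. The tumour SD was 4.17 (n = 4), larger than that of 99.95% of tested probes, for which the median SD was 0.38. The difference was 7.62 (SE 1.80, adjusted p 0.00774 by limma). Without SCC replicates 2 and 5 it was 4.27 (adjusted p 0.0132, 2 tumours left). It was 6.12 without SCC replicate 2, 6.92 without SCC replicate 5, 8.48 without SCC replicate 1, 9.02 without SCC replicate 4 and 6.88 without WT replicate 4. The normexp background gave 5.76, array quality weights 4.83 and the authors' matrix 6.92. Under several of these settings the difference of Scgb3a1 was the larger, for example 6.71 without SCC replicate 2.

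The same 2 tumours stood out for other Reg and trefoil genes. The gene nearest to Reg3g was Tff1, a mucus-associated trefoil peptide, at a distance of 1.33, followed by Agr2 at 2.04 and Muc5b at 2.13, the disulfide isomerase and the mucin of mucous cells. Tff1 was at 17.89 and 15.96 on SCC replicates 2 and 5 and between 8.83 and 9.77 on the other tumours. Reg1 was at 17.15 and 15.11 on these arrays and between 5.16 and 6.20 on the others, and all WT arrays were between 3.70 and 4.43, with 1 of them above background. Its difference of 5.84 was not called (SE 2.38, adjusted p 0.0657 by limma, exact permutation p 0.00794). It was called without SCC replicate 3, without SCC replicate 4 and without SCC replicates 2 and 5 together. Reg3b, named after its values were seen, was above background on SCC replicates 2 and 5 only, at 14.04 and 11.53, and on no WT array, and was not tested. Reg1, Reg3b and Reg3g are related in sequence, and cross-hybridization between their probes was not tested.

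**Figure D2:**
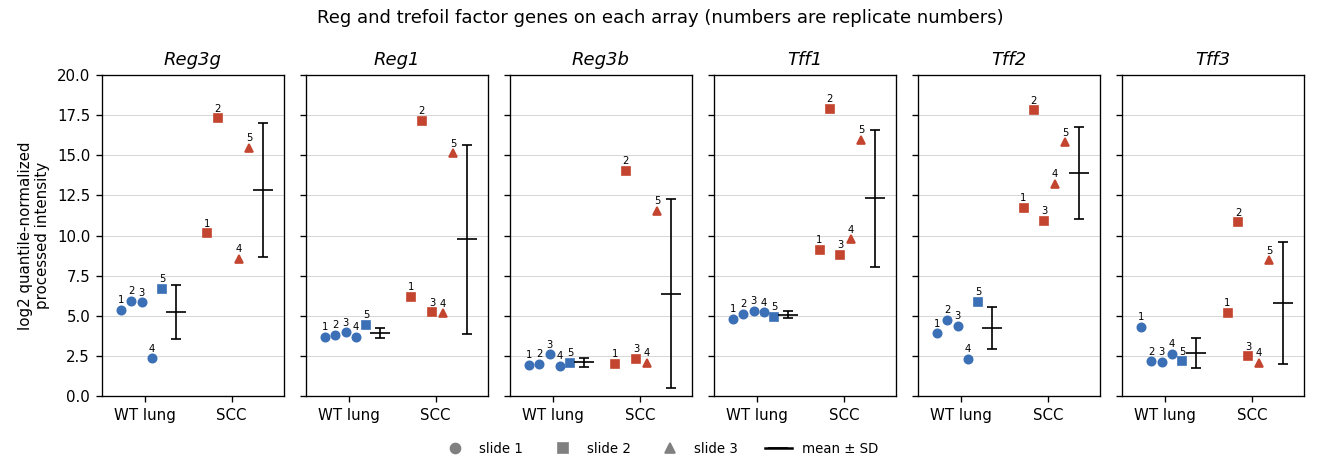
Log2 quantile-normalized intensity (y axis) of Reg3g, 2 other Reg genes and 3 trefoil factor genes on each WT and SCC array, with the slide as the symbol and mean ± SD beside the points. SCC replicates 2 and 5 were the highest arrays in every panel, for example at 17.28 and 15.46 for Reg3g. SCC replicate 3 has no Reg3g value.

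Chad did not pass the test. It was at 9.69, 8.31, 9.16, 8.01 and 10.11 on the WT arrays and at 9.91, 10.44, 8.51, 9.81 and 9.17 on SCC replicates 1 to 5, so the groups overlapped over most of their range. The difference was 0.51 (SE 0.47, adjusted p 0.391 by limma, exact permutation p 0.333). Within slide 2 its sign was the opposite, at -0.49. Upk2, A2ml1 and Proc had the nearest profiles, at 0.31, 0.38 and 0.41. Of 21 tested genes of cartilage and the small leucine-rich proteoglycans, none was higher and 6 were lower, where 24.9% of all tested genes were called, 11.6% higher and 13.4% lower. Among the 6, the largest falls were in Omd (-4.51, adjusted p 0.000289), Ogn (-3.55), Prelp (-1.92) and Aspn (-1.68), collagen-binding proteoglycans of connective tissue. Omd was above background on 3 of 5 SCC arrays. A single gene of this list was called higher without WT replicate 4, SCC replicate 3 or SCC replicate 4.

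The lungs also differed from each other in these genes. WT replicate 5 was the highest lung for 6 of the 8 and WT replicate 4 the lowest for 6 of the 8, while over all tested probes these arrays were the highest and the lowest lung for 21.6% and 17.9%. WT replicate 5 was also the highest lung for 11 of 11 ciliated cell markers and 14 of 24 club cell genes, and WT replicate 4 the lowest for 7 and 18 of them. The log2 of the summed ciliated level ranged from 14.99 to 16.40 over the lungs and from 13.29 to 15.43 over the tumours. Of the 11 ciliated markers 6 were lower in SCC, where 13.4% of all tested genes were called lower. The ciliated count was 1 without WT replicate 1, WT replicate 5 or SCC replicate 3, 2 without WT replicate 3 and 3 without SCC replicate 1. It was 1 with slide as a fixed block. The part of airway content in the levels of the 8 genes was not tested. For Scgb3a1, Bpifa1, Bpifb1, Reg3g and Chad, the WT spread was larger than that of at least 98.1% of tested probes. Among the tumours, SCC replicate 2 was the highest for 6 of the 8 genes, against 38.6% of all probes, and for 16 of 24 club cell genes. SCC replicates 3 and 4 were each the lowest for 4 of the 8.

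Slide and group were nearly confounded. Only slide 2 held both groups, and its WT side was replicate 5, the highest lung for most of these genes. Within slide 2 the differences were 5.68 for Scgb3a1, -1.41 for Scgb1a1, -1.64 for Scgb3a2, 4.94 for Bpifa1, 2.70 for Bpifb1, 3.09 for Pigr and 7.00 for Reg3g. With slide as a fixed block, which rests on this contrast, Scgb3a1 was still called (adjusted p 0.00599 by limma). The other 6 lost their call and kept their direction. Over all alternatives the adjusted p ranged from 0.000832 to 0.211 for Scgb1a1, from 0.00492 to 0.247 for Scgb3a2 and from 0.000322 to 0.138 for Bpifa1. The range was 3.13e-05 to 0.0764 for Bpifb1, 1.92e-05 to 0.0716 for Pigr and 0.00344 to 0.237 for Reg3g. In all 6 the upper end was the fit with slide as a fixed block.

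**Figure D3:**
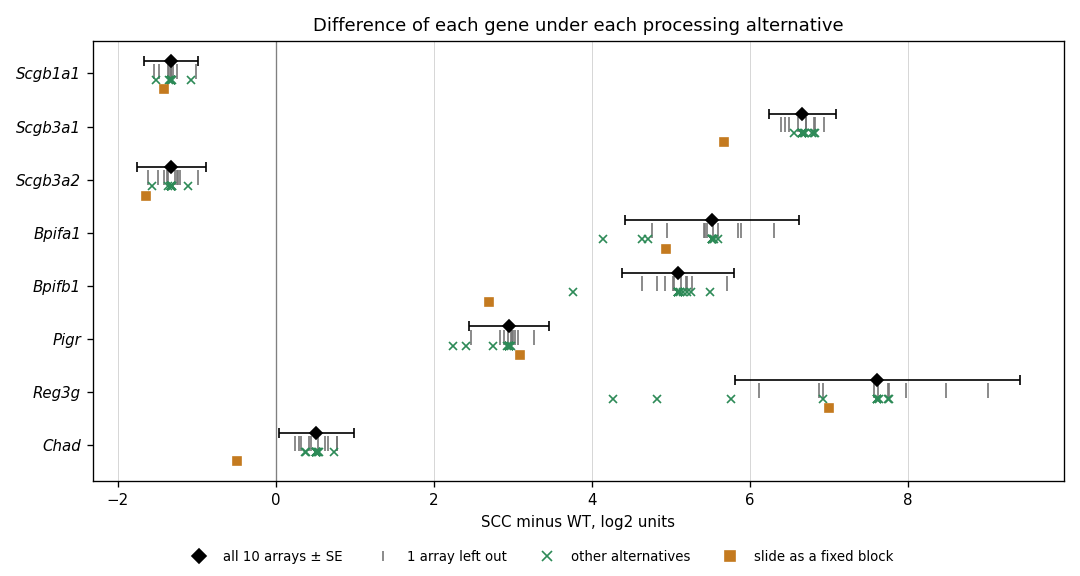
Difference SCC minus WT in log2 units (x axis) for each of the 8 genes, from all 10 arrays with its standard error (black diamonds), with 1 array left out (grey ticks), under other alternatives (green crosses) and with slide as a fixed block (orange squares). No difference crossed 0 apart from that of Chad, which was -0.49 with slide as a fixed block, and Reg3g had the widest range, from 4.27 to 9.02.

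Around these genes, the list of club cell genes was divided. The list holds genes shared with other epithelial cells, such as Krt15, so its counts do not measure club cell identity. Of 24 tested club cell genes, 6 were higher and 8 lower, with a median of -0.34. Beside this count and those that follow, 11.6% of all tested genes were called higher and 13.4% lower. Large changes were seen in Krt15, a keratin shared with basal cells (5.46, adjusted p 1.79e-06), Sult1d1, a sulfotransferase (-4.29, adjusted p 0.00339), and Pon1, an esterase (-3.76, adjusted p 2.55e-05). Sult1d1 was above background on 3 of 5 SCC arrays. The log2 of the summed level of the list was 19.89 to 20.22 on the WT and 19.19 to 20.13 on the SCC arrays. With slide as a fixed block, 5 were higher and 4 lower.

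Mucous and other secreted products were mostly higher, 16 of 24 tested, with Msln, which encodes mesothelin, the single gene called lower (-2.56) and a median of 2.26. Clca1, a mucus-associated protease, passed background on all SCC arrays and not on any lung, at least 304-fold higher (adjusted p 0.000446). Tff2, a trefoil peptide above background on 2 of 5 WT arrays, rose by 9.63 (adjusted p 0.000231), Ltf, which encodes lactoferrin, by 8.80 (adjusted p 1.02e-07), and Dmbt1, a scavenger receptor of mucosal fluids, by 8.58 (adjusted p 2.15e-06). With slide as a fixed block 9 were called higher. Ltf is also 1 of 11 submucosal gland markers, of which 3 were bright enough to test and 1 was called. No WT array measured the other 8 above background.

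Among 20 regulators of airway secretory genes, 11 were higher and 1 was lower, with a median of 1.28. Sox9 rose by 5.11 (adjusted p 3.25e-06), and the epithelial ETS factors Elf3, Spdef and Ehf rose by 4.01, 3.50 and 3.39. Spdef, the factor of mucous cell differentiation, was at 11.69 on SCC replicate 2 and 10.22 on SCC replicate 5, above the 8.51 to 8.87 of the other tumours and the 5.70 to 6.49 of the lungs. Foxa1 was higher by 1.48 (adjusted p 0.000430). Foxa2 differed by -0.85 (adjusted p 0.0444, less than 2-fold), Nkx2-1, the lung lineage factor, by -0.21 (adjusted p 0.0635) and Cebpa by 0.32 (adjusted p 0.0890). The gene called lower was Hey1, a Notch target, which fell by 2.38, and without SCC replicate 2 a further gene was called lower. With slide as a fixed block 7 were called higher.

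In the IL-17, IL-22 and interferon gamma axis, which governs Reg3g and Pigr in other epithelia, 11 of 24 tested genes were higher and 2 were lower, with a median of 1.07. Cxcl5, a neutrophil chemokine, rose by 8.54 (adjusted p 8.21e-06), Il6 by 3.67 (adjusted p 0.000147) and Nfkbiz, a cofactor of IL-17 target genes, by 2.11 (adjusted p 5.21e-05). On the WT arrays Cxcl5 was above background on 2 of 5 and Il6 on 3 of 5, so these differences rest partly on values near background. Csf3, which no WT array measured above background, was higher by at least 2.08-fold. The genes called lower were Il22ra2, a soluble IL-22 receptor, which fell by 1.89 and was above background on 2 of 5 SCC arrays, and Ifng, which fell by 1.18. Ifngr1, a chain of the interferon gamma receptor that was named after its values were seen, differed by -0.81, less than 2-fold (adjusted p 0.00235). Neither Il22ra2 nor Ifng was called without WT replicate 1, WT replicate 4 or SCC replicate 4. The count of genes called lower was 1 without WT replicate 2, WT replicate 5, SCC replicate 1 or SCC replicate 2. Cxcl5 was lowest among the tumours on SCC replicate 2, at 10.32, where Reg3g and Pigr were highest. Of the cytokines themselves, Il17f, named here after its values were seen, was higher by 2.04 (SE 0.24, adjusted p 0.000107), from 3.59 to 4.58 on the WT arrays to 5.65 to 6.50 on the SCC arrays, and it was above background on 1 WT array and all SCC arrays. Il17a and Il22 were too dim to test, above background on no SCC array and on 1 SCC array. Of 8 tested neutrophil markers, Cd177, Cxcr2, Mmp8, S100a8 and Csf3r were higher, with a log2 summed level of 14.74 to 15.55 in WT and 14.11 to 16.90 in SCC. Only 3 of the 8 were called when WT replicate 2, 3 or 5 or SCC replicate 1, 3, 4 or 5 was left out, and none with slide as a fixed block. SCC replicate 2 was the lowest tumour for Cxcr2, Mmp8, S100a8 and Csf3r, inside or below the WT range, while Cd177 was at 9.02 there against 5.94 to 6.61 on the WT arrays. With slide as a fixed block the axis had 5 genes higher and none lower.

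**Figure D4:**
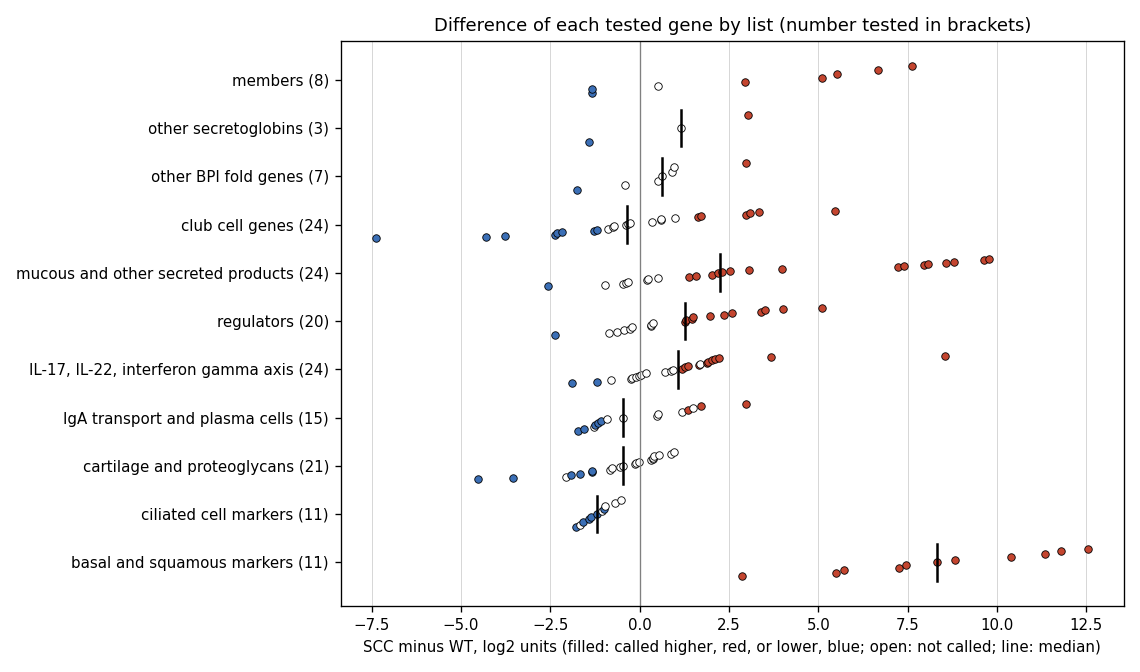
Difference SCC minus WT in log2 units (x axis) of each tested gene in the 8 genes and in 10 lists, with filled points for called genes, open points for genes not called and a line at each list's median. Mucous products, regulators and basal and squamous markers had medians of 2.26, 1.28 and 8.31, and ciliated cell markers had a median of -1.20.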

How the data were processed

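Total RNA from 5 WT lungs and 5 SCCs had been labelled with Cy3 and hybridised to single-colour Agilent mouse arrays. Per the file headers, the authors read each array with Agilent Feature Extraction 12.0.0.7, and the deposited processed intensity is background-subtracted and linear. The authors also deposited a matrix of quantile-normalized log2 values, used as an alternative. Depth of an array is not a read count, and the number of arrays limits the precision.

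Spots that were controls or carried an outlier flag were dropped, log2 processed intensities were averaged per probe and quantile-normalized, and SCC was compared with WT in limma 3.58.1 (R 4.3.3, lmFit and eBayes, no covariates, Benjamini-Hochberg). Probes were tested if well above background on at least 4 of 5 arrays of a group, and a call needed an adjusted p below 0.05 and a 2-fold difference. A gene was represented by its probe with the highest mean in the deposited matrix. Where no array of a group was above background, the fold is a bound: the mean of the brighter group against the mean, over the arrays of the dimmer group, of the higher of the probe's own value and the lowest value of a probe well above background. Gene symbols came from RefSeq accessions (28223 of 41174 probes). Coordinates of probes are not given, because the headers name build mm9 and the RefSeq tables GRCm38.p6. The fit was tested on simulated data. Normexp was run on the median signal with an offset of 50.

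The 8 genes, the 18 lists and the alternatives were chosen with earlier results of these data known. Named from each list other than the cell type markers were up to 4 called genes with the largest absolute difference, apart from a gene that is not reported here. Genes making up counts of 5 or fewer, and Sftpc, were named after their values were seen. Also named were every tested family relative and the regulators Nkx2-1, Foxa1, Foxa2, Cebpa and Spdef. For each of the 8 genes, the 3 nearest profiles were named by root mean square distance from the WT mean over the 10 arrays, among genes above background on all of them, and over 9 arrays for Reg3g, which has no value on 1. Summed levels of a list are the log2 of the sum of linear normalized intensities.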

Additional observations from a re-analysis of the deposited data

Results flagged for a closer look

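On SCC replicate 5, 90.2% of probes were well above background, and the nearest other SCC array had 73.8%. The gap was 0.861 of the range of the 5 SCC arrays, above Dixon's limit. None of the 8 secretory genes had an array with such a gap in either group. Over 174 groups of arrays examined, 172 for the genes named and 2 for this share, 16 had one, 15 of them for genes, and chance gives about 1 in 20. Groups in which no array was above background were left out. For Reg3g on the SCC arrays the criterion was applied to 4 values.

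Among the other genes, SCC replicate 2 lay apart for Cxcl5 (10.32, nearest 13.15, gap 0.827), Jchain (10.75, nearest 12.63, gap 0.805) and Prelp (15.34, nearest 14.21, gap 0.823). It was also the low array for the neutrophil and macrophage markers S100a8 (11.10, nearest 13.98, gap 0.873), Csf3r (9.88, nearest 11.73, gap 0.837), Cxcr2 (8.17, nearest 10.21, gap 0.805), Mmp8 (8.28, nearest 9.96, gap 0.755) and Cd68 (12.23, nearest 14.23, gap 0.889). SCC replicate 1 lay apart for Cd79a (4.03, gap 0.944), SCC replicate 4 for Sox9 (9.53, gap 0.755) and SCC replicate 5 for Aspn (5.30, gap 0.810). Of the WT arrays, replicate 1 lay apart for Aspn (8.98, gap 0.761), Tff3 (4.33, gap 0.762) and Il17a (4.67, gap 0.821), and replicate 4 for Ltf (8.26, gap 0.756).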

How the results depend on the processing

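Scgb3a1 was called under all 22 alternatives. Scgb1a1, Bpifb1 and Pigr were called in 21 of 22, and Bpifa1 and Reg3g in 20 of 21, the exception being slide as a fixed block (-1.41, 2.70, 3.09, 4.94 and 7.00). Scgb3a2 lost its call in 9 of 22. The number of the 8 genes called higher fell from 5 to 1 with slide as a fixed block, and to 3 when probes had to be above background on all 10 arrays, since Bpifa1 and Reg3g were then not tested. The number called lower fell from 2 to 0 with slide as a fixed block, and to 1 with the methods' t-test at an unadjusted threshold of 0.01 (Scgb3a2, p 0.0240, which a threshold of 0.05 would pass) and after Benjamini-Hochberg (0.0503). With 1 array left out it was 1 to 2, and the number called higher was 5. The calls over all probes were 6954. They numbered 14878 by adjusted p alone, 3969 with normexp and 2989 with slide as a fixed block.

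The replicate numbers shared by both groups gave no sign of pairing the samples. Arrays of the same number correlated at r = -0.10 to 0.0087 after removal of group means, which cannot exclude pairing where tumours differ widely from each other. With the replicate block, 6571 probes were called, 5 of the 8 genes were higher and 1 was lower, with Scgb3a2 at -1.32 (adjusted p 0.0724).

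In the lists, normexp left no other secretoglobin or BPI fold gene called higher, 3 IgA and plasma cell genes lower, and 7 genes of the IL-17 axis higher and 0 lower. The 75th percentile scaling, which moved the median of all tested probes from -0.090 to 0.032, left 0 genes of that axis lower and raised the share of higher calls from 43.3% to 53.2%. Slide as a fixed block left 1 IgA and plasma cell gene higher and 2 lower, and 2 cartilage genes lower. Other probes of the 8 genes could not be tried, since each has 1. Bpifa1 and Reg3g were not well above background on 1 of the 5 WT arrays, so their folds rest partly on signals near background.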
